A study of Mus musculus with 2 samples.

Results

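The nuclear-encoded subunits of respiratory complexes I to IV, cytochrome c and the electron transfer flavoprotein are described here, as read on arrays of small intestine from mice fed a control diet or an EPA&DHA diet. The members were 46 genes listed by name, and every probeset annotated to 1 of them alone was used. Of these 46 genes, 44 had such probesets, 93 in all. The list names no subunit of ATP synthase (complex V), so those genes are given as a separate list further on. Ndufs6 was read only by a probeset shared with Ndufs6b, and Cox7b is not analysed here. The shared Ndufs6 probeset read 6040 in the control pool and 6340 in the EPA&DHA pool (log2 ratio 0.07).

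Both groups were male C57BL/6J mice, an inbred strain, aged 4 months, and 12 animals received each high-fat diet (20% fat by weight) for 4 weeks. Flaxseed oil, rich in the plant n-3 fatty acid ALA, was the fat of the control diet, and in the EPA&DHA diet 44% of the lipid was exchanged for a concentrate with 6% EPA and 51% DHA. RNA of 10 of the control mice and 11 of the EPA&DHA mice went into 1 pool for each diet, and each pool was read on 1 Affymetrix array. A single array per diet means that there were no replicates, the spread between mice is unknown, and values are given without tests or error estimates. The methods speak of epithelial cells scraped from the gut, while the sample labels speak of the complete small intestine. Fewer cells of a type and less RNA per cell cannot be told apart in such bulk RNA.

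The respiratory chain passes electrons to oxygen and uses the energy to move protons across the inner mitochondrial membrane. NADH enters at complex I and succinate at complex II, and ubiquinone carries the electrons from both to complex III, cytochrome c and complex IV. Fatty acid β-oxidation feeds the chain by separate routes, since each round yields NADH for complex I and FADH2, whose electrons reach ubiquinone through the electron transfer flavoprotein (ETF) and its oxidoreductase. Enterocytes, the absorbing cells of the small intestine, are rich in mitochondria, and the oxidation of fatty acids in this tissue was the subject of the study.

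The transcription factor NRF1 is known for binding the promoters of many nuclear genes of the respiratory chain. Promoter windows (250 bases before to 50 after the transcription start, RefSeq, GRCm38.p6) were held for 37 of the 46 members, 38 windows in all. The NRF1 core GCATGCGC, searched on both strands, occurred in 8 of these 38 windows (21.1%), against 2.71% of all 32851 windows in the table and 4.95% of the 12118 windows of genes measured on the arrays. The following upstream stretches are shown because these 5 members hold the core while their ratios lie at both ends of the range described below. Capitals mark the core. Where it reads the same on both strands, the matches overlap and the capitals run over 10 bases.
Cycs (chr6:50566586-50566665, minus strand, log2 ratio 0.40): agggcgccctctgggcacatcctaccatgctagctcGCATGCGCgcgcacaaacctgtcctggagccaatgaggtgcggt
Etfa (chr9:55512305-55512384, minus strand, 0.30): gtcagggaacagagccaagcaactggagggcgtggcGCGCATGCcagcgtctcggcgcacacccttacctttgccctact
Etfdh (chr3:79628850-79628931, minus strand, 0.18): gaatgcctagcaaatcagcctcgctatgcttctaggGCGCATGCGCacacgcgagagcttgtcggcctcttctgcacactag
Sdhb (chr4:140961181-140961260, plus strand, -0.22): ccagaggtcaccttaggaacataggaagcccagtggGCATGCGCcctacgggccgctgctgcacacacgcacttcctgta
Cox6a1 (chr5:115349075-115349156, minus strand, -0.33): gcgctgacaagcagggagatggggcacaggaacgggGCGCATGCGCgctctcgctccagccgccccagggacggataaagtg
The core started 60 bases before the transcription start in Cycs and 162 bases before it in Cox6a1.

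Further motifs were looked for in the same windows, each on both strands. AAGATGGCG, a motif of the factor YY1, was found in 5 of the 38 member windows (13.2%), 1.40% of all windows and 2.86% of those of measured genes. The YY1 matches of members all began 23 to 36 bases after the start, in Ndufa9, Ndufc1, Ndufs4, Ndufs6 and Ndufs7. The ETS motif CCGGAAGT, read by GABP, was found in 3 member windows (7.89%) and in 7.72% of those of measured genes. TCAAGGTCA, a motif of the ERR receptors, was found in the window of Sdhd alone among members. Repeats of AGGTCA with 1 base between them, the arrangement bound by PPARα with its partner RXR, were found in 0 of the 38 member windows and in 0.0396% of all windows, so exact matches to these letters are rare everywhere. The median log2 ratio was -0.05 over the 8 members with the NRF1 core and -0.02 over the 27 others with a window and a value. These matches describe letters in short windows and say nothing of binding in these mice.

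Markers of other cells moved between the pools in places. All 7 measured markers of pancreatic acinar cells had ratios of 2-fold or more in favour of EPA&DHA, with summed signals of 3074 and 11538, and none was at 0 on either array. Of 8 markers of B and plasma cells 4 (Ighm, Ms4a1, Cd79a and Cd79b) were at least 1.5-fold lower and 0 higher, and 6 lay below 0. Over all genes 7.9% were lower and 6.19% higher at that limit. These 4 markers were dim, from Cd79a (245 and 150) to Ighm (685 and 359), and ratios vary more at dim signals. The summed signals of all 8 were 26847 and 29937. Most of that came from Jchain (11507 and 14860) and Xbp1 (13124 and 13585), the 2 above 0. Smooth muscle markers (6 genes) summed to 6780 and 6447, most of it from Mylk (5449 and 5296), and all 6 lay below 0, with a median log2 ratio of -0.18. Goblet and Paneth cell markers (8 genes) summed to 185744 and 148256, and 7 of the 8 lay below 0, with a median of -0.29. Of either group 0 were 1.5-fold apart. The labelled tissue was borne out by 14 measured enterocyte markers, among them villin (Vil1, 24490 and 23996) and lactase (Lct, 26044 and 24409). Of these 14, 0 were 1.5-fold apart and 11 lay below 0, with a median of -0.12 and summed signals of 424258 and 371421. The part of these shifts in the ratios of the respiratory chain was not tested.

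On its brightest probeset, no measured member differed by 1.5-fold between the diets. Signals are MAS 5.0 intensities, scaled to 1 common trimmed mean, and a gene takes the value of its brightest probeset that names it alone. All 44 genes had a log2 ratio of EPA&DHA over control between -0.39 and 0.40, and the largest difference in either direction was 1.32-fold. Of the 44 genes, 18 lay above 0 and 26 below. Their median was -0.03, or 0.0046 after centring on the median of all kept probesets, beside -0.05 over all 11687 genes measured and -0.06 over the 1109 other genes at or above the lowest member signal. Below 0 lay 6599 of those 11687 genes and 665 of those 1109, so a majority below 0 was not particular to the members. At a limit of 1.5-fold, 0 members were higher and 0 were lower, where all genes gave 6.19% higher and 7.9% lower. The members read at high signals, where ratios vary less, and the 1109 other genes in that range gave 3.25% higher and 0.721% lower. A lack of 1.5-fold differences was therefore common at these signals, and 88.7% of those genes lay within 1.32-fold as well. The SD of the log2 ratios was 0.18 over the members and 0.28 over those other genes.

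**Figure D1:**
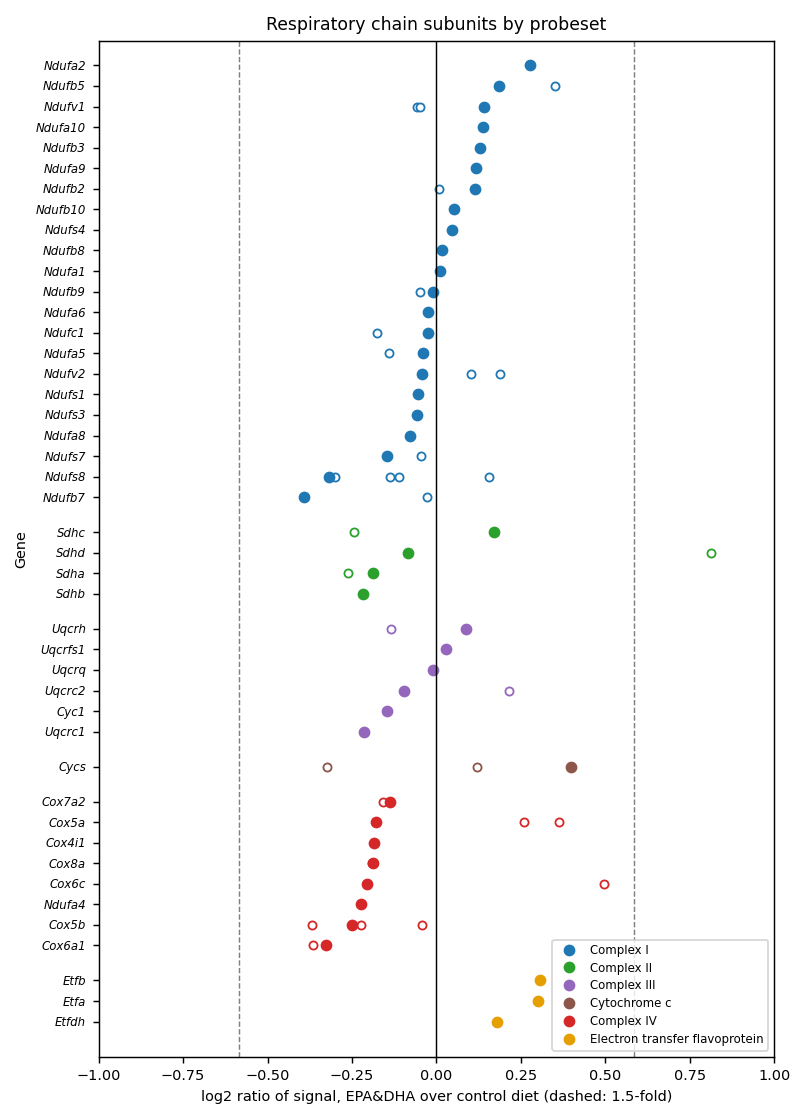
Log2 ratio of signal, EPA&DHA over control diet (x axis), of each member gene (y axis), coloured by complex. Filled circles are the brightest probeset of a gene and open circles its other probesets with a mean signal of 1024 or more, 75 probesets together. All filled circles lie between the dashed 1.5-fold lines, complex IV below 0 and the electron transfer flavoprotein above 0.

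The small differences were not spread evenly over the chain. The 3 genes of electron transfer from acyl-CoA dehydrogenases to ubiquinone had higher signals on EPA&DHA, and the 8 measured genes of complex IV had lower ones. Complexes I, II and III lay between, with medians of -0.00012, -0.14 and -0.05. For scale, the local SD, the robust SD of the log2 ratios of the 500 probesets nearest in signal, was 0.19 to 0.25 for member genes. It holds measurement noise and any true differences of those 500 probesets alike. Of the 44 members 12 had a ratio larger than their local SD and 1 a ratio larger than 2 local SDs, while 32.9% and 7.07% of all genes did.

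Etfa and Etfb encode the subunits of ETF, which takes electrons from the acyl-CoA dehydrogenases of β-oxidation. Etfa read 8995 in the control pool and 11088 in the EPA&DHA pool, which was 1.23-fold higher (log2 ratio 0.30, local SD 0.24). Etfb read 7408 and 9159, which was 1.24-fold higher (log2 ratio 0.31, local SD 0.23). Etfdh, the oxidoreductase that hands these electrons to ubiquinone, read 5374 and 6084, which was 1.13-fold higher (log2 ratio 0.18, local SD 0.25). Each of these genes thus read slightly higher on EPA&DHA, and Etfdh by less than its local SD. They had 1 kept probeset each, so no other reading was at hand, and the other probeset of Etfdh was too dim to be kept (28.3 and 62.2). The median of the 3 genes was 0.30 and stayed between 0.26 and 0.34 under every scaling, filter and probeset choice that was tried. With 1 kept probeset for each gene, most filter and probeset choices could not change it. The median over all probesets of a gene, dim ones included, moved Etfdh to 0.66.

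Complex IV, cytochrome c oxidase, reduces oxygen at a core encoded by mitochondrial DNA, and the members are nuclear-encoded subunits around that core. All 8 measured genes had lower signals on EPA&DHA, within a narrow range of log2 ratios from -0.33 to -0.14. Cox6a1 read 41563 in the control pool and 33102 in the EPA&DHA pool, 1.26-fold lower. Cox5b, which binds zinc on the matrix side, stood at 32999 and 27753, 1.19-fold lower. Cox4i1, the largest nuclear-encoded subunit, stood at 28185 and 24774, 1.14-fold lower. The same direction was read for Cox5a (27166 and 23975), Cox6c (26962 and 23384), Cox7a2 (34776 and 31583) and Cox8a (15595 and 13693), smaller subunits around the core. Ndufa4, named for complex I but known today as a subunit of complex IV, stood at 16636 and 14239, a log2 ratio of -0.22, and its place changed neither description, as the median of complex IV without it was -0.19 and that of complex I with it -0.01.

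The direction was less uniform over all probesets of complex IV. Of 17 kept probesets with a mean signal of 1024 or more, 14 had a ratio below 0 and 3 above. The exceptions were probesets of Cox5a with log2 ratios of 0.26 and 0.36 and of Cox6c with 0.50, opposite to the brightest probesets of the same genes. Signal moved with the ratio as well. Of the 13 members whose probeset had a mean signal of 16384 or more, 6 belonged to complex IV, and the median over all 13 was -0.15. The other 220 genes at such signals had a median log2 ratio of -0.13, and 72.7% of them lay below 0, against 56.4% of the 381 other genes between 8192 and 16384. Across the 44 member genes the log2 ratio and the mean log2 signal correlated with a Spearman rho of -0.49 and a Pearson r of -0.46, and across the 1109 other genes with -0.11 and -0.14, where genes read on the same arrays are not independent. How much of the lower complex IV readings goes with the height of the signal was not tested. After a loess correction for signal the median of complex IV was -0.15, after quantile normalization -0.10, and without the genes at 16384 or more -0.21, the last from Cox8a and Ndufa4 alone.

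**Figure D2:**
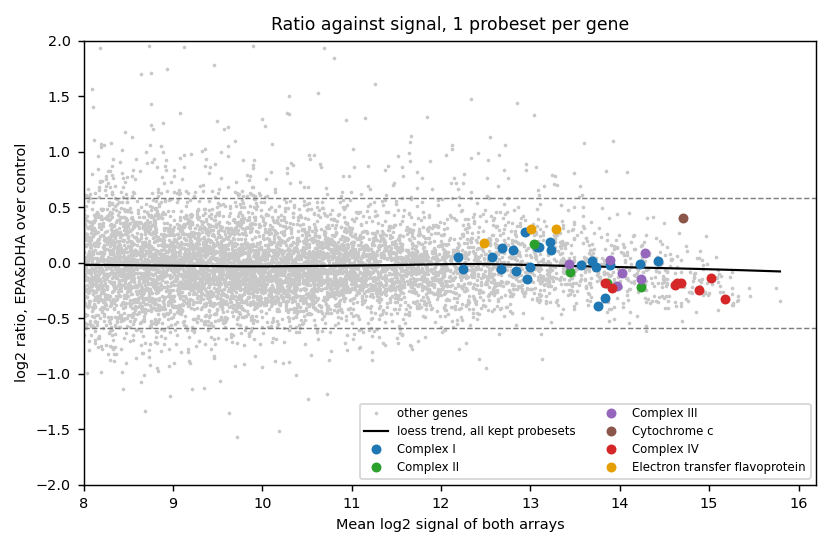
Log2 ratio of EPA&DHA over control (y axis) against the mean log2 signal of both arrays (x axis), 1 probeset per gene, with other genes in grey, member genes coloured by complex and the loess trend of all kept probesets in black. Genes under a mean log2 signal of 8 or past the y axis are not drawn. The members lie at 12 or more on the x axis, and those of complex IV lie among other bright genes that are mostly below 0.

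Cycs encodes cytochrome c, the small carrier between complexes III and IV. Its brightest probeset read 23260 in the control pool and 30676 in the EPA&DHA pool, 1.32-fold higher (log2 ratio 0.40, local SD 0.20), and it was the only member past 2 local SDs. A second probeset of nearly the same brightness read the opposite, 28939 and 23134, a log2 ratio of -0.32. The remaining ones had log2 ratios of 0.12 and, at a dim signal, -0.71. The direction for Cycs therefore depended on the probeset, and the mean over its 4 kept probesets was -0.13.

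Complex III takes electrons from ubiquinone to cytochrome c. The log2 ratio was -0.15 for Cyc1, its cytochrome c1, from 20280 to 18310, and 0.03 for Uqcrfs1, the Rieske iron-sulfur protein, from 14991 to 15279. The core proteins Uqcrc1 and Uqcrc2 stood at -0.21 and -0.09, the hinge protein Uqcrh at 0.09 and the small subunit Uqcrq at -0.01. These 6 genes lay on both sides of 0, and Uqcrc2 and Uqcrh each had another bright probeset with the opposite sign (0.22 and -0.13).

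Complex II is the succinate dehydrogenase of the citric acid cycle. Sdha, the flavoprotein that oxidizes succinate, read 15797 in the control pool and 13878 in the EPA&DHA pool, a log2 ratio of -0.19. Sdhb, its iron-sulfur partner, stood at 20765 and 17857, a log2 ratio of -0.22. The membrane anchors Sdhc and Sdhd had log2 ratios of 0.17 and -0.08, and each had a second, dimmer probeset of opposite sign. That of Sdhd, at 900 and 1582, had a log2 ratio of 0.81 and was the only member probeset at a mean signal of 1024 or more that passed 1.5-fold. The catalytic pair thus read lower on EPA&DHA, Sdha by less than its local SD (0.21), and the anchors gave no common direction. Sdhb had a mean signal above 16384, where the median of the other genes was -0.13, as given above.

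Complex I had 22 measured genes, 11 with a log2 ratio above 0 and 11 below, and its median moved from -0.00012 to 0.042 after a loess correction. Its NADH-binding module gave 0.14 for Ndufv1, which holds the flavin, -0.04 for Ndufv2 and -0.05 for Ndufs1. Both Ndufv genes turned with the probeset, as others of similar signal stood at -0.06 and -0.05 for Ndufv1 and at 0.19 and 0.10 for Ndufv2. The core subunits on the way to ubiquinone gave -0.06 for Ndufs3, -0.15 for Ndufs7 and -0.32 for Ndufs8, all below 0 on the brightest probeset. Another bright probeset of Ndufs8 (9544 and 10640) stood at 0.16. The accessory subunit Ndufb7 had the lowest ratio of all members, with signals of 15816 and 12040 (1.31-fold lower), and its other probeset stood at -0.03. The highest was the accessory subunit Ndufa2, with signals of 7127 and 8642 (1.21-fold higher). Between them lay Ndufb5 at 0.18, Ndufa10 at 0.14, Ndufb3 at 0.13, Ndufa9 and Ndufb2 both at 0.12, Ndufb10 and Ndufs4 both at 0.05, Ndufb8 at 0.02 and Ndufa1 at 0.01. Just below 0 lay Ndufb9 at -0.01, Ndufa6 and Ndufc1 both at -0.02, Ndufa5 at -0.04 and Ndufa8 at -0.08. Only Ndufa2, Ndufb7 and Ndufs8 passed their local SD, so within complex I neither direction prevailed.

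Probesets of the same gene often disagreed in sign. Of 26 member genes with more than 1 kept probeset, 10 had ratios of both signs. Of all 86 kept member probesets 2 passed 1.5-fold upward and 3 downward, where 8.06% and 8.85% of all kept probesets did. Of these 5, only the one of Sdhd had a mean signal of 1024 or more. The largest was a probeset of Ndufs8 at 25.1 in the control pool and 204 in the EPA&DHA pool (log2 ratio 3.02), while the 5 brighter Ndufs8 probesets ran from -0.32 to 0.16. The lower ones were dim probesets of Cox8a (98.3 and 40.3), Uqcrq (78.0 and 41.2) and Cycs (116 and 71.0).

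ATP synthase, which uses the proton gradient to make ATP, held no gene with a 1.5-fold difference on its brightest probeset, which was common at these signals, as the shares of 3.25% and 0.721% above show. A dimmer probeset of Atp5o, a subunit of the stalk, did pass it, with 2919 and 7749 (log2 ratio 1.41), while the brightest one of that gene stood at 0.03. Of the 17 measured genes, which include the inhibitor Atpif1, 4 had a log2 ratio above 0 and 13 below, and the median was -0.10. For comparison, 72.7% of the 220 non-member genes at a mean signal of 16384 or more lay below 0, with a median of -0.13. Of the 381 between 8192 and 16384, 56.4% did. The lowest of the 17 was Atp5d, the δ subunit of the catalytic part, with signals of 31768 and 22063. Its log2 ratio was -0.53, and -0.20 on its other probeset. The highest was Atp5pb, the b subunit of the stalk, with 20084 and 23403 and a log2 ratio of 0.22, but -0.10 on its other probeset. The catalytic subunits Atp5a1 and Atp5b stood at -0.30 and -0.08. A second bright probeset of Atp5a1 read 17861 and 17813, a log2 ratio of -0.0039, and a dim one stood at -0.39. Further subunits of complex I, 11 genes, had a median of -0.06 and ran from -0.33 (Ndufa13) to 0.46 (Ndufb6), and 6 further subunits of complexes III and IV had a median of -0.04, from -0.23 (Uqcrb) to 0.16 (Uqcr11). Uqcrb turned with the probeset, since its other one read 8262 and 12164, a log2 ratio of 0.56. On the brightest probeset 0 of these further genes passed 1.5-fold. Subunits encoded by mitochondrial DNA were not analysed here.

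The oxidation of fatty acids had higher ratios than the chain it feeds. The 17 measured genes of mitochondrial β-oxidation had a median log2 ratio of 0.27, which was 0.30 above that of the members, and 15 of the 17 lay above 0. Of these 17, 3 were at least 1.5-fold higher and 0 lower. Over all genes 6.19% were higher and 7.9% lower at that limit, for this list and the peroxisomal one below. Acadl, an acyl-CoA dehydrogenase, had signals of 9498 and 15353 (1.62-fold higher), Slc25a20, the carnitine carrier, a log2 ratio of 0.69 and Acaa2, the thiolase of the last step, 0.66. Cpt1a, which commits fatty acids to the mitochondrion, stood at 0.39 on its brightest probeset and at 1.98 and 2.07 on dimmer ones. Hadhb, a subunit of the trifunctional protein, stood at 0.31 on its brightest probeset and at 1.24 and 0.63 on the others. The lowest was Hadh at -0.21, with -0.10 on its next probeset and 2.21 on a dim one (216 and 997). Peroxisomal β-oxidation, whose first step gives its electrons to oxygen directly and not to the respiratory chain, had 5 of 12 measured genes at least 1.5-fold higher, 0 lower and a median of 0.54. Its range ran from Acox2, the branched-chain oxidase, at 1.30 to Scp2, a carrier with a thiolase form, at -0.26. A second bright probeset of Scp2 read the opposite, 9722 and 15999, a log2 ratio of 0.72. These directions were known when the lists were made, and with 1 array per diet no test of the difference between lists was possible.

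**Figure D3:**
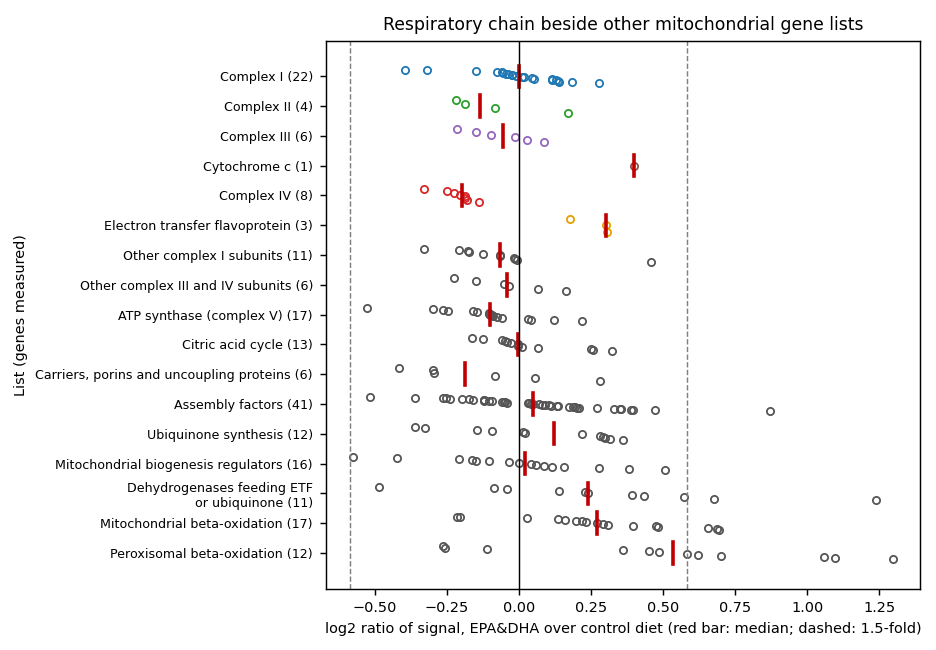
Log2 ratio of signal, EPA&DHA over control diet (x axis), of each measured gene (circles) in 17 lists (y axis, number of genes in brackets), with list medians as red bars and 1.5-fold as dashed lines. Medians of the complexes lie near or below 0, and those of the electron transfer flavoprotein and of both β-oxidation lists lie above 0.

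The acyl-CoA dehydrogenases of the β-oxidation list, which reduce ETF, are given beside the ETF genes, whose log2 ratios ran from 0.18 to 0.31. On their brightest probesets they stood at 0.69 for Acadl, 0.29 for Acad11, 0.27 for Acadvl, 0.23 for Acadm, 0.16 for Acads and 0.03 for Acad10. A second bright probeset of Acad11 (5635 and 8881) stood at 0.66, and a dimmer one of Acad10 (108 and 52.0) at -1.05. The range of the ETF genes also took in Ndufa2 and Ndufb5 of complex I. Acad9, a dehydrogenase known mainly for the assembly of complex I, stood at -0.26 on its brightest probeset and at 0.65 on a dimmer one. Other enzymes that pass electrons to ETF or to ubiquinone were listed with Etfrf1 and Etfbkmt, which act on ETF itself. The median was 0.24 over 11 measured genes, with 2 at least 1.5-fold higher and 0 lower, where all genes gave 6.19% and 7.9%. Both were dehydrogenases of amino acid breakdown that use ETF, read at dim signals. Gcdh of the lysine route went from 282 to 665 (2.36-fold higher, log2 ratio 1.24, local SD 0.32). Ivd of the leucine route went from 248 to 397 (1.60-fold higher, log2 ratio 0.68, local SD 0.36). The lowest of the 11 was Prodh, a proline dehydrogenase, at -0.49. Gpd2, the glycerol phosphate dehydrogenase, and Dhodh of pyrimidine synthesis, which reduce ubiquinone without ETF, stood at -0.08 and 0.14.

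**Figure D4:**
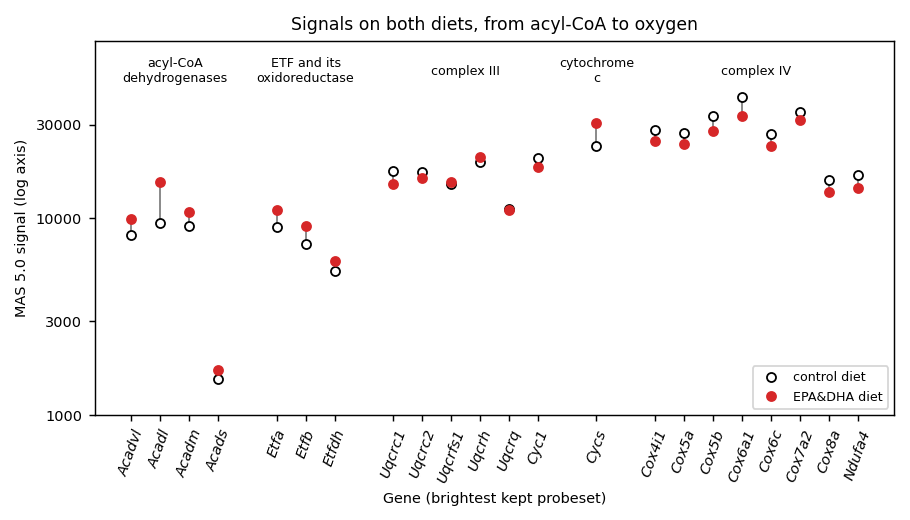
Signal on the control diet (open circles) and on EPA&DHA (filled circles) of the brightest probeset of each gene (x axis), on a log axis, in the order in which electrons pass from acyl-CoA to oxygen. Signals of different probesets cannot be compared as levels, and only the direction and length of each line count. The lines of the 4 acyl-CoA dehydrogenases drawn and of the 3 ETF genes point up, and all 8 of complex IV point down.

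Other mitochondrial lists differed in their medians. Over all genes 6.19% were at least 1.5-fold higher and 7.9% lower, the shares to hold beside the counts that follow. In the citric acid cycle 0 of 13 measured genes were 1.5-fold apart, the median was -0.00343 and the range ran from -0.16 (Dlst, a subunit of the 2-oxoglutarate dehydrogenase complex) to 0.32 (Suclg2, a subunit of succinyl-CoA ligase). Carriers and porins had a median of -0.19 over 6 genes, from Vdac1, a porin, at -0.42 to Slc25a4, an ADP/ATP carrier, at 0.28. The probesets of Vdac1 disagreed, with -0.40, 0.08 and 0.72 on the others. Ubiquinone synthesis had a median of 0.12 over 12 genes, from Pdss2 at -0.36 to Coq10b at 0.36, with 0 at 1.5-fold. Of the 41 measured assembly factors, which build the complexes, 1 was at least 1.5-fold higher and 0 lower. It was Ndufaf2, a chaperone of complex I, from 235 to 431, and the lowest was Tmem126b at -0.52. Among 16 regulators and maintenance factors of mitochondrial biogenesis 0 were 1.5-fold apart, with a median of 0.02. Tfb2m and Tfam, which start transcription of mitochondrial DNA, stood at 0.51 and 0.38, with -0.26 on a dimmer probeset of Tfam, and the helicase Twnk, the lowest, at -0.58. The coactivator Ppargc1a had no common direction over its 5 probesets, which ran from -0.55 to 0.24, nor had Nrf1 over its 4, from -0.22 to 0.35.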

How the data were processed

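The authors read the RNA pool of each diet on 1 Affymetrix MOE430_2 array and deposited MAS 5.0 signals (version not stated), linear intensity values per probeset. Both arrays had the same 2% trimmed mean of 500.004, were scaled to it, and log2 ratios were taken. After 64 control probesets were set aside, the 24270 brightest of 45037 probesets by mean log2 signal were kept, as many as the methods count as expressed. The dimmest kept had a mean signal of 51.1. Names came from the platform annotation, updated through gene identifiers to RefSeq (GRCm38.p6), with 1 gene for 34945 probesets, several for 932 and none for 9160.

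The members and lists were chosen with earlier results of these data known. All members with a value are named. Of each further list the highest and lowest gene and those past 1.5-fold were eligible, and Acads, Acadm, Acadvl and further genes with a stated role were added after their values were seen. Each array's 3' to 5' signal ratio, a measure of intact RNA, was 0.932 (control) and 0.793 (EPA&DHA) for Gapdh and 1.22 and 1.16 for Actb. The number of arrays, 1 per diet, limits the precision. Scripts were tested on simulated data and used Python 3.11.15, numpy 2.4.6, pandas 2.3.3, scipy 1.17.1, statsmodels 0.14.6 and matplotlib 3.10.9. Alternatives were other scalings, an offset of 50, other filters, other probeset choices and the complex of Ndufa4.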

Additional observations from a re-analysis of the deposited data

How the results depend on the processing

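Counts and medians of the members and the median of mitochondrial β-oxidation were recomputed under 10 to 12 alternatives each, 11 fixed at the start and 1 (leaving out genes at a mean signal of 16384 or more) chosen after seeing the data. A median counted as the same when it moved by 0.1 or less without passing 0 by more than 0.02. By this rule, or as counts within 1.5 times, 109 of 119 values were the same. Some of them could hardly move, so the tally overstates stability. Both arrays already had the same trimmed mean, and centring cannot change a difference between medians. The filters on signal left the bright member probesets in place. The number of members at least 1.5-fold higher became 1 (Etfdh, 0.66) with the median over all probesets of a gene, dim ones included, and the number at least 1.5-fold lower became 1 (Uqcrq, -0.92, on a dim probeset) without probesets marked as shared or alternative. The median of all members was 0.0046 after centring. That of complex I was 0.036 after centring, 0.042 after loess and 0.032 with the mean over kept probesets. The value of Cycs was 0.53 after quantile normalization, -0.13 with the mean over kept probesets, 0.12 without shared or alternative probesets and -0.10 with the median over all. Complex IV stayed below 0 (-0.21 to -0.10), and mitochondrial β-oxidation stayed 0.29 to 0.37 above the members. No paired analysis was possible because each diet has 1 array. The other lists were recomputed after loess alone. Differences well under the local SD cannot be told from the noise of 1 array pair.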

Other observations

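Subunit isoforms that other tissues use in place of the common ones were also read. Of 9 such genes 4 had a kept probeset of their own. Cox7a1, the heart and muscle form of a complex IV subunit, read 5941 in the control pool and 5425 in the EPA&DHA pool (log2 ratio -0.13), near that of its common counterpart Cox7a2 at -0.14. Cox6b2, known from testis, read 414 and 644 (log2 ratio 0.64, local SD 0.30), whereas the common form Cox6b1 stood at -0.15. The muscle form Cox6a2 was dim at 87.9 and 115, and Cox8c stood at 360 and 286. Of the 4, 1 was at least 1.5-fold higher and 0 lower, where 6.19% and 7.9% of all genes were. Of the ketone body genes measured here, Acat1 stood at 0.03 and Bdh1 at -0.14, with 0.23 on a dimmer probeset of Bdh1.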
